A study of Homo sapiens with 16 samples.

Results

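VCaP cells given 1 nM dihydrotestosterone (DHT) together with 1 µM enzalutamide for 24 h were compared with control cells of the same subline. The subline, Vc, had been kept for 4 months with ethanol, the solvent. The comparison was chosen by the sample labels and holds 4 of the 16 libraries of the series, 2 Vc-control and 2 Vc-1nM-DHT-1uM-enzalutamide, with all 22553 genes that passed the filter on low counts. Further Vc libraries, 2 with DHT alone and 2 with enzalutamide alone, and the matching control and combined libraries of Ver, a VCaP subline kept for 4 months in 1 µM enzalutamide, were used to place the values. Before treatment every group, the controls included, spent at least 48 h in medium free of phenol red, with serum stripped by charcoal to remove steroids, so the control cells were deprived of androgen too. VCaP is an established human prostate cancer line that carries the TMPRSS2-ERG fusion, in which an androgen-responsive promoter drives the transcription factor ERG. The labels do not say whether the 2 libraries of a group came from separate cultures, so p-values measure the spread between these libraries, which may be technical.

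DHT is the most potent natural androgen. It binds the androgen receptor, a steroid-activated transcription factor of prostate epithelium that switches on secretory, lipid and glycosylation genes and lowers others. Enzalutamide is an antagonist that competes for the same ligand pocket.

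Polyadenylated RNA was sequenced, and the deposited values are read counts per gene. Gene totals ranged from 11320665 to 12929267 in the 4 libraries and from 8155244 to 13273523 over all 16. Levels are given as CPM, each count as a share of its library's gene total times 1000000, scaled by the trimmed mean of M values, without division by gene length, so they compare libraries and not genes. Log2 changes carry their standard error (SE). A gene is said to rise or fall where edgeR's quasi-likelihood test passed an adjusted p of 0.05 (Benjamini-Hochberg, over the whole table). Within groups the log2 CPM values correlated across genes with r of 0.9836 and 0.9831, against 0.9657 to 0.9677 between the groups. Reads outside any gene made up 50.13% and 50.61% of counted reads in the control libraries and 48.6% and 47.97% with both compounds; the part of this share in the results was not tested. Of 16 stromal and endothelial markers, summed CPM were 34.6 and 40.7 in control and 30.2 and 27.7 with both compounds. Of 16 immune markers they were 7.45 and 6.1 against 8.01 and 7.56, and DES, KDR, CD3D, CD3E and MS4A1 were among the markers that had no read in any of the 4 libraries. In bulk RNA, fewer cells of a type and less RNA per cell cannot be told apart.

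With both compounds present, 6418 genes differed from control, 28.5% of those tested. Of these, 3451 rose (15.3%) and 2967 fell (13.2%), and 628 rose and 870 fell by at least 2-fold. The shares of 15.3% and 13.2% are the background for the list counts below. The lists were chosen with earlier results of these data known, so a list count above this background is a description and no test. The median log2 change over all genes was -0.0078. Scaling by gene totals alone moved this median to -0.11 and the split to 2553 higher and 4133 lower, so changes are given relative to the middle of the distribution. The plot of change against level shows the calls along the whole range of expression.

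**Figure D1:**
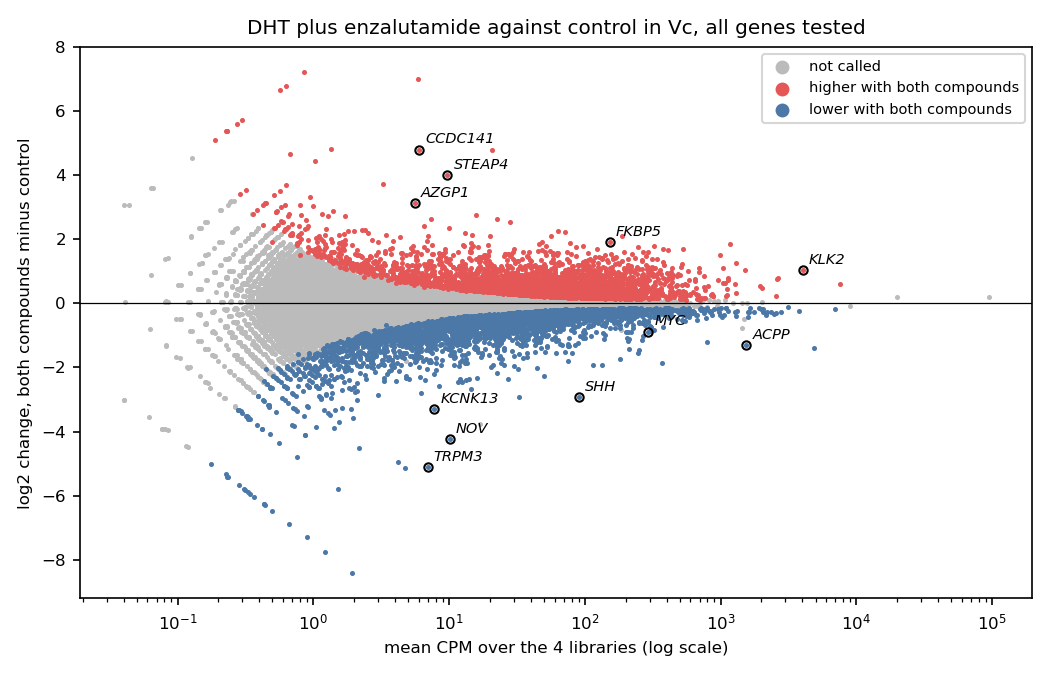
Each point is a gene: mean CPM over the 4 libraries (log scale, genes at 0 in all 4 left out) against the log2 change of both compounds over control in Vc. Red genes rose, blue genes fell and grey genes did not pass the test; named genes are circled.

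DHT without the antagonist, against the same control libraries, changed more genes. There 4917 genes rose (21.8%) and 5070 fell (22.5%), 1609 and 2407 of them by at least 2-fold. Cells with both compounds differed from cells with DHT alone in both directions as well, with 2588 genes higher (11.5%) and 2471 lower (11.0%). These 3 comparisons share libraries, so their values are set side by side and no agreement between them is counted as a result. With gene totals as the scale the splits were 3575 higher and 6814 lower for DHT against control, and 3290 higher and 1806 lower for both compounds against DHT.

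Genes that androgen is known to induce were higher with both compounds in most cases. Of 43 members of that list tested, 34 rose and 3 fell, with a median log2 change of 0.89 against -0.0078 over all genes tested. With DHT alone 38 rose and 3 fell, with a median of 1.59. Between the combination and DHT, 30 of the 43 were lower with the antagonist present and 5 were higher, SLC45A3, STEAP2, TRPM8 and ADAM7 among them.

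FKBP5, a co-chaperone of steroid receptors and a direct androgen target (chr6:35573585-35728583 in GRCh38, minus strand), stood at 64.7 and 63.1 CPM in the 2 control libraries and 228 and 253 CPM with both compounds. The groups did not overlap, and the log2 change was 1.91 ± 0.077 (edgeR adjusted p = 3.4e-19). DHT alone gave 1772 ± 16.4 CPM (mean ± SD, n = 2, as for all means below) and enzalutamide alone 51.4 ± 0.324 CPM. In linear CPM the combination thus lay far nearer to control than to DHT. On the log2 scale the contrast was smaller, 1.91 from control and -2.88 ± 0.067 from DHT (edgeR adjusted p = 1.8e-24). NCAPD3, a condensin subunit and a strongly androgen-induced gene, behaved alike, at 91.5 and 85.6 CPM in control, 226 and 245 with both compounds and 1589 ± 54.4 with DHT. STEAP4, a metalloreductase, rose from 1.23 and 1.02 CPM to 18.7 and 17.8 CPM, a log2 change of 4.00 ± 0.28. DHT alone reached 84.6 ± 0.786 CPM. The log2 difference of STEAP4 from DHT was -2.21 ± 0.12, so on that scale it lay nearer to DHT.

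The kallikreins sat at the other end. KLK2, a secreted prostate protease, was at 2703 and 2577 CPM in control and 5522 and 5334 CPM with both compounds, next to 6092 ± 147 CPM with DHT. Its log2 change was 1.04 ± 0.041, and the log2 difference from DHT was -0.17 ± 0.041 (edgeR adjusted p = 6.3e-04). KLK3, which encodes prostate-specific antigen, went from 27.3 and 24.8 to 61.3 and 57.4 CPM, with 71.8 ± 5.22 CPM under DHT. Both genes therefore stood much closer to the DHT level than FKBP5 did, although the 1 µM antagonist was present. UAP1, an enzyme of the hexosamine pathway, was in the same position at 75 and 72.4 CPM in control, 208 and 211 with both compounds and 247 ± 12.8 with DHT, as was PMEPA1, a membrane adaptor that restrains TGF-β signalling, at 742 and 781, 1785 and 1910.1 and 2119 ± 26.4 CPM.

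The stretch upstream of KLK3 is shown because it holds a well-known androgen-response site and the gene is the clinical readout of androgen action. The sequence is the 250 bases before the RefSeq start in GRCh38.p14, plus strand, chr19:50854665-50854914, and the capitals mark the receptor's hexamer AGAACA, 170 bases before the start.
KLK3: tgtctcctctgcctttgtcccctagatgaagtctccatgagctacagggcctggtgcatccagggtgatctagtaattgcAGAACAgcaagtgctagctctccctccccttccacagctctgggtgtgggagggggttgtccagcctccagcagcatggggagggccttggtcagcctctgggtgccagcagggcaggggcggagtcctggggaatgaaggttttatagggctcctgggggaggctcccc
The hexamer, searched on both strands, was found in 2 of 34 promoters of the androgen-induced list (5.88%) and in 7.98% of the 11981 tested genes with a RefSeq promoter. Among genes that rose with both compounds the share was 6.84%, and among those that fell 7.34%.

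TMPRSS2 and ERG lie on chromosome 21 (chr21:41464551-41531116 and chr21:38380027-38661780), and gene counts do not separate ERG reads of the fusion transcript from those of an intact allele. TMPRSS2, a membrane protease, was at 211 and 226 CPM in control, 346 and 358 CPM with both compounds and 799 ± 6.18 CPM with DHT. Its log2 change was 0.69 ± 0.054, and it was lower than with DHT by a log2 difference of -1.18 ± 0.053. ERG moved in a like way, from 318 and 328 to 556 and 556 CPM, against 915 ± 10.7 CPM with DHT and 236 ± 1.52 CPM with enzalutamide alone. The log2 change of ERG was 0.78 ± 0.051 (edgeR adjusted p = 5.0e-30).

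Members higher with both compounds than with DHT alone follow. SLC45A3, the prostate transporter also called prostein, was at 491 and 527 CPM in control, 1776 and 1891 CPM with both compounds and 1622 ± 2.32 CPM with DHT, and the log2 difference from DHT was 0.18 ± 0.047 (edgeR adjusted p = 0.002). TRPM8, a cold-sensing ion channel of prostate epithelium, showed the pattern more clearly, at 90.3 and 90.2, 244 and 254 and 167 ± 4.65 CPM in the same order. Its combined level was 2.76-fold that of control, and it was above DHT by 0.58 ± 0.064 on the log2 scale. STEAP2, a metalloreductase, was at 1926 and 1934 CPM in control, 3358 and 3410.3 with both and 3109 ± 82.6 with DHT. STEAP1, its relative and a member of the prostate secretory list, rose with both compounds from 218 and 210.4 to 306 and 314 CPM, while its level with DHT was 218 ± 5.41 CPM.

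The 3 members of the list that fell were PTGER4, F5 and HPGD. PTGER4, a prostaglandin E receptor, fell from 19.2 and 19.4 to 4.66 and 6.61 CPM, and F5, coagulation factor V, from 55.9 and 57.3 to 37.7 and 35.9 CPM. HPGD, which inactivates prostaglandins, fell from 133 and 129 to 61.2 and 64.4 CPM, although DHT alone left it at 138 ± 5.58 CPM. The panels of single libraries show these levels for 12 genes.

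**Figure D2:**
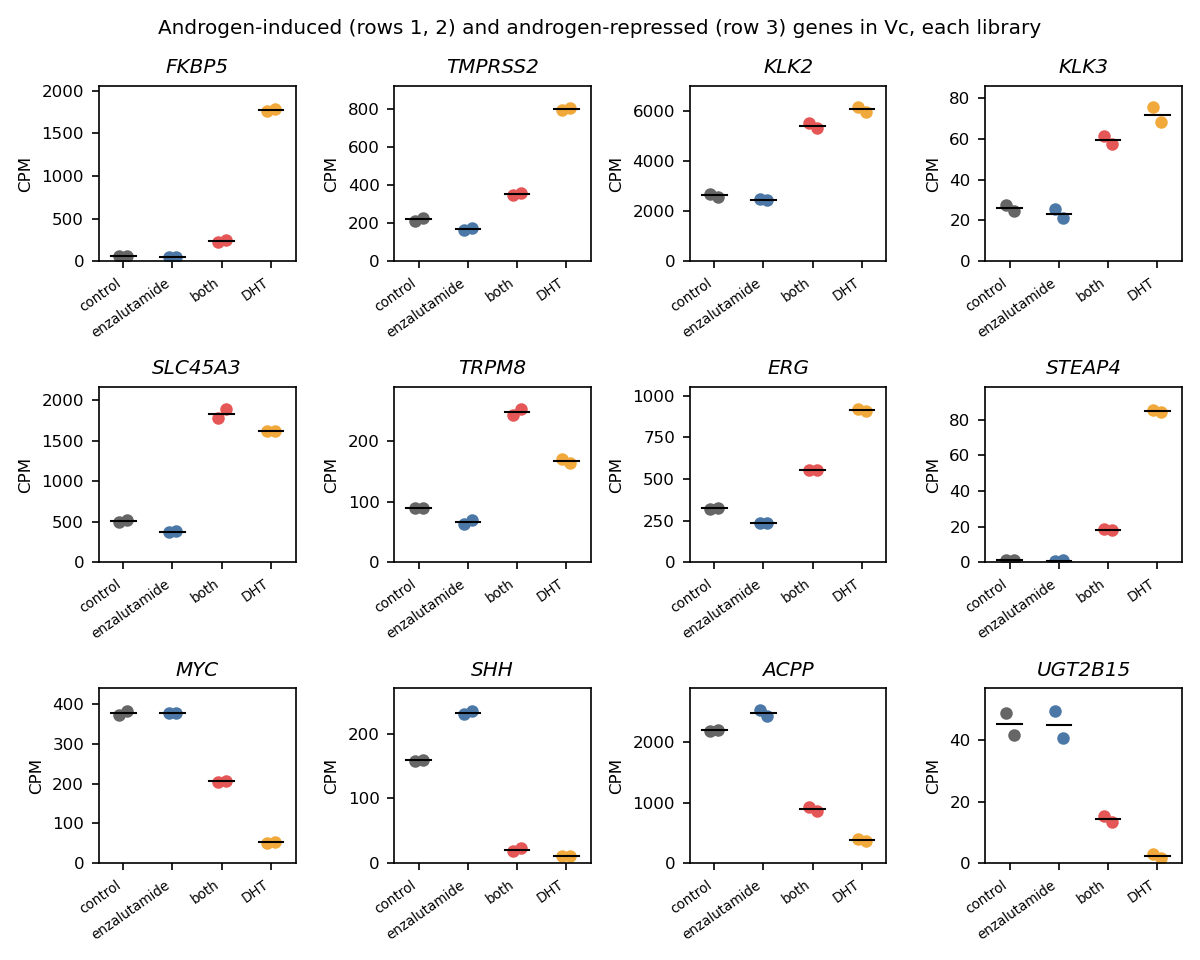
CPM (linear axis from 0) of 12 genes in the Vc libraries with control, enzalutamide, both compounds or DHT; points are libraries (n = 2) and lines are group means. FKBP5 with both compounds lies near control, KLK2 and KLK3 lie near DHT, SLC45A3 and TRPM8 lie above DHT, and the 4 repressed genes in the last row lie between control and DHT.

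Genes that androgen lowers were lower with both compounds. Of 18 tested members, 14 fell and 1 rose, with a median log2 change of -1.44; with DHT alone 15 fell and the median was -2.61. SHH, the hedgehog ligand, was at 158 and 159.6 CPM in control and 19 and 23 CPM with both compounds, a log2 change of -2.92 ± 0.089, against 11.4 ± 0.0809 CPM with DHT. ACPP, which encodes prostatic acid phosphatase, fell from 2187 and 2194 to 927 and 864 CPM, with 385 ± 19.7 CPM under DHT. FOLH1, prostate-specific membrane antigen, fell from 367 and 352 to 181 and 173 CPM, with 50.6 ± 6 CPM under DHT. In each of these genes the combined group lay between control and DHT and did not overlap control. The share of all genes without overlap is not given, so the lack of overlap adds nothing to the calls.

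DDC, the enzyme that makes dopamine and serotonin, fell from 69.7 and 73.7 to 17.7 and 17.6 CPM. NOV, a matricellular protein, fell from 18.9 and 19.5 to 0.803 and 1.23 CPM, a log2 change of -4.23 ± 0.33; the 2 DHT libraries held 0 reads of it, which allows up to 0.136 CPM over that group, a limit that covers counting error only. UGT2B15, which glucuronidates DHT, fell from 49 and 41.8 to 15.3 and 13.5 CPM and stood at 2.32 ± 1.13 CPM with DHT. Near-identical relatives can share reads with it, so UGT2B17 (1.46 and 0.85 against 0.241 and 0.529 CPM) is uncertain, and its call was lost in 5 of 10 alternatives. MYC, a transcription factor of cell growth, was at 372 and 384 CPM in control, 204 and 208 CPM with both compounds and 52.7 ± 2.01 CPM with DHT. Its log2 change was -0.88 ± 0.054 and its log2 difference from DHT was 1.97 ± 0.063 (edgeR adjusted p = 5.0e-63). LIFR, a cytokine receptor, was the member that rose, from 97.1 and 98.5 to 119 and 120.0 CPM, and DHT alone took it to 417 ± 20.9 CPM.

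Enzymes of androgen metabolism moved both ways. Of 12 tested, 3 rose (HSD17B4, RDH11 and STS) and 3 fell (HSD17B11, AKR1C1 and AKR1C3), with a median log2 change of -0.19. Over all genes tested 15.3% rose and 13.2% fell. AKR1C3, which makes testosterone from androstenedione, fell from 66.7 and 63.5 to 30.1 and 26.2 CPM, with 15.9 ± 3.41 CPM under DHT. RDH11, a retinol dehydrogenase, rose from 191 and 191 to 257 and 258 CPM, while with DHT it stood below control at 159.6 ± 10.2 CPM. HSD17B11 fell by 0.43 on the log2 scale, and that call was lost when any of the 4 libraries was left out.

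Genes known to answer to the glucocorticoid receptor, many of which the androgen receptor also regulates, rose in 8 of 14 cases, and GLUL, glutamine synthetase, fell. Their median log2 change was 0.64, against 1.5 with DHT, and 12 of the 14 were lower with both compounds than with DHT. ERRFI1, a feedback inhibitor of growth factor receptors, was at 46.5 and 46.1 CPM in control, 72.6 and 66.8 with both compounds and 228 ± 10.3 with DHT. MT2A, a metallothionein, rose from 103 and 85.9 to 168 and 182 CPM. TSC22D3, an anti-inflammatory leucine zipper protein, rose from 4.08 and 2.38 to 10.8 and 10.1 CPM. ZBTB16, a zinc-finger repressor, did not pass the test at 167 and 176 against 182 and 194 CPM (edgeR adjusted p = 0.053), while DHT gave 393 ± 7.89 CPM.

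Sterol synthesis genes rose almost throughout. Of 24 genes, 23 rose and none fell, with a median log2 change of 1.00 against 1.27 for DHT. In the comparison with DHT, 17 were lower with both compounds, and TM7SF2, a sterol reductase, was higher. HMGCS1, an early enzyme of the pathway, rose from 150.4 and 145 to 427 and 397 CPM, a log2 change of 1.48 ± 0.055, with 512 ± 9.21 CPM under DHT. MSMO1, a sterol demethylase, rose from 91.2 and 98.8 to 287 and 296 CPM. INSIG1, which holds the sterol sensor in the endoplasmic reticulum, rose from 73.7 and 68.2 to 301 and 309.8 CPM, or 4.3-fold. None of these 3 genes overlapped between the groups. They were chosen with their values known, and the share of all genes without overlap is not given, so this adds nothing to the calls.

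Fatty acid synthesis genes rose in 15 of 20 cases, with a median log2 change of 0.77 against 0.92 for DHT, and ACACB, which limits fatty acid oxidation, fell. FASN, fatty acid synthase, rose from 951 and 1003 to 1938 and 2133 CPM and reached 3534 ± 40.2 CPM with DHT. FADS1, a desaturase, rose from 126 and 128 to 299 and 278 CPM, with 502 ± 8.9 CPM under DHT. SCD, the stearoyl desaturase, rose from 379 and 378 to 788 and 757 CPM, and its difference from DHT did not pass the test (log2 -0.08 ± 0.05). ACLY, which supplies cytosolic acetyl-CoA, likewise went from 189.6 and 181 to 342 and 353 CPM with a log2 difference from DHT of -0.08 ± 0.052. A p that misses the threshold does not show that these levels were equal.

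Unfolded protein response genes rose in 28 of 30 cases and none fell; ERO1B and PPP1R15A did not pass. Their median log2 change was 1.08 against 1.54 for DHT, and all 30 were lower with both compounds than with DHT. DNAJB9, a chaperone of the endoplasmic reticulum, was at 20.9 and 21.6 CPM in control, 96.1 and 87.4 CPM with both compounds and 156 ± 9.9 CPM with DHT. DNAJC10, a disulfide reductase, rose from 117 and 106 to 376 and 381 CPM. HYOU1, a large chaperone, rose from 329 and 293 to 746 and 719 CPM, and TRIB3, a stress-induced pseudokinase, from 104 and 108 to 264 and 273 CPM. HSPA5, the main chaperone of the compartment, rose from 475 and 448 to 924 and 905 CPM, a log2 change of 0.99 ± 0.048. DDIT3, a transcription factor of the stress response, rose from 9.7 and 9.01 to 26.9 and 27 CPM.

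Promoters of this list are shown because its members moved together and some carry a known element. The ER stress element, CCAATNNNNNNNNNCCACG, was searched on both strands in the 250 bases before each RefSeq start (GRCh38.p14), and capitals mark it. HSPA5 is on chr9:125241344-125241593, minus strand; XBP1, a transcription factor of the response, on chr22:28800570-28800819, minus strand; CALR, the chaperone calreticulin, on chr19:12938359-12938608, plus strand, where the element reads from the opposite strand.
HSPA5: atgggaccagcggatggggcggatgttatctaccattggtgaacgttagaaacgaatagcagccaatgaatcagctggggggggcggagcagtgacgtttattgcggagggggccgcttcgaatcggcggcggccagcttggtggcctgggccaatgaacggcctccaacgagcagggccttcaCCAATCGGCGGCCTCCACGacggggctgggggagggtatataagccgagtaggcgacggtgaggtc
XBP1: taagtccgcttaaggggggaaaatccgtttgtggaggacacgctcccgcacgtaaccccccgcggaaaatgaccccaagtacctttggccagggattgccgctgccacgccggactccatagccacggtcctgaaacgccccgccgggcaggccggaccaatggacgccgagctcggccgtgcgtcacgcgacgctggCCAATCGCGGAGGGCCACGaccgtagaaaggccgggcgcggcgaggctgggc
CALR: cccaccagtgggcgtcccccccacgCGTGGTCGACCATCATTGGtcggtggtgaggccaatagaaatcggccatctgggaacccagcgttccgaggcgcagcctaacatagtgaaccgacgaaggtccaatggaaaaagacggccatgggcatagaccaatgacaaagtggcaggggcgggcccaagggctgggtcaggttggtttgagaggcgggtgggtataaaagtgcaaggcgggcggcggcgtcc
The element was present in 7 of 29 promoters of the list (24.1%) and in 14 of the 11981 promoters of genes tested (0.117%). Of those 14 genes, 11 rose with both compounds and 0 fell. Among the 11981 tested genes with a promoter, 2559 rose and 2015 fell. The 14 include the 7 members of the list, which is already given above as rising. ERO1B, EIF2A and ZNF17 did not pass the test, with log2 changes of 0.34, -0.17 and 0.013. Besides list members the 14 include FICD, SERP1, TRIM5, ALG12 and TMEM120A. These rose by log2 changes of 1.54, 1.12, 1.17, 0.39 and 0.37, and the call of ALG12 was lost in 8 of 11 alternatives. XBP1 itself rose from 197 and 199 to 412 and 392 CPM and CALR from 723 and 729 to 1173 and 1228 CPM. A match of letters is a description and shows no binding.

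The secretory pathway and glycosylation list rose without exception. All 35 of 35 genes passed, with a median log2 change of 1.00 against 1.28 for DHT, and 33 were lower than with DHT while GALNT7, a mucin-type glycosyltransferase, was higher. SEC24D, a coat protein of transport vesicles, rose from 47 and 40.2 to 156 and 144 CPM. SSR3, a subunit of the translocon-associated complex, rose from 196 and 179.9 to 498 and 483 CPM, and SEC61A1, the channel itself, from 238 and 228 to 538 and 539 CPM. GFPT1, the entry enzyme of the hexosamine pathway, rose from 283 and 273 to 606 and 586 CPM. GALNT7 stood at 50.3 and 47.6 CPM in control, 113 and 108 with both compounds and 91.6 ± 2.12 with DHT.

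Genes of DNA replication fell. Of 32 tested, 24 fell and none rose, with a median log2 change of -0.88 against -1.36 for DHT; 15 were higher and 3 lower with both compounds than with DHT. MCM4, a subunit of the replicative helicase, fell from 110.3 and 109.9 to 43.7 and 43 CPM, a log2 change of -1.34 ± 0.078, with 27.4 ± 0.326 CPM under DHT. MCM2 and MCM5, of the same helicase, fell from 59.3 and 68.1 to 19.2 and 25.5 CPM and from 48.7 and 49.1 to 14.7 and 18.1 CPM. UHRF1, which keeps DNA methylation through replication, fell from 33.8 and 40.1 to 13.2 and 13.8 CPM. The 3 genes lower than with DHT were CDC6, GINS3 and FEN1; FEN1, a flap endonuclease, was at 21.6 and 22.9 CPM in control, 19.3 and 21.2 with both compounds and 26.5 ± 5.78 with DHT.

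Helicase promoters are printed because the subunits fell together and the list is known for E2F control. Capitals mark the E2F sites searched on both strands, TTTGGCGC and TTTCCCGC, in the 250 bases before the start. MCM6 is on chr2:135876444-135876693 and MCM3 on chr6:52284743-52284992, both on the minus strand in GRCh38.p14.
MCM6: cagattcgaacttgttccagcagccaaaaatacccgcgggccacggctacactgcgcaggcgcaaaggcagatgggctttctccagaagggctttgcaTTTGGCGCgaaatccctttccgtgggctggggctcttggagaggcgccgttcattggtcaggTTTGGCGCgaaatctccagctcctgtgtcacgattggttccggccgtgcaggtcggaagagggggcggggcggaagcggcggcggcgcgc
MCM3: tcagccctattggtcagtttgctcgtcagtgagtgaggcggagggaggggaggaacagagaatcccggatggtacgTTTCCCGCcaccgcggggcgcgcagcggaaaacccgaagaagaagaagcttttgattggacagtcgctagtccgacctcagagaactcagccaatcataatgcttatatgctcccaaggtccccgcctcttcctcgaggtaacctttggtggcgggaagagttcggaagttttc
A site was found in 12 of 28 promoters of this list (42.9%), against 2.93% of promoters of genes tested. The shares were 2.27% of genes that rose and 3.77% of genes that fell. MCM3, MCM6 and MCM7, the helicase subunits among the 12, changed by -1.12, -1.33 and -0.69 on the log2 scale. MCM2, MCM4 and MCM5, not among the 12, changed by -1.51, -1.34 and -1.58. CDT1 and POLA1 had a site and did not pass the test. Whether the site goes with the fall was not tested. MCM6 fell from 50.0 and 48.4 to 18.9 and 20.2 CPM and MCM3 from 54 and 50.3 to 28 and 19.7 CPM. E2F1, a transcription factor of this family with a site in its own promoter, fell from 28.9 and 37 to 14.6 and 14.3 CPM.

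Mitosis genes also fell. Of 32 tested, 19 fell and none rose, with a median log2 change of -0.48, against -0.64 for DHT. KIF11, a spindle motor, fell from 34.3 and 39.2 to 21.6 and 19.6 CPM, and CDK1, the mitotic kinase, from 34.3 and 36.4 to 19.9 and 22.4 CPM. BUB1B, a checkpoint kinase, fell from 17.2 and 14.7 to 7.3 and 7.66 CPM. Cell cycle inhibitors and G1 cyclins were mixed, with 4 of 17 higher (CCND1, CCND3, CDKN1A and CDKN2D) and 5 lower, CDKN2C, RBL1, SKP2 and CDC25A among them, a count that came to 3, 2 and 3 without combined replicate 1, combined replicate 2 or control replicate 2. The background for these counts was 15.3% higher and 13.2% lower. CDKN1A, the p21 inhibitor, rose from 30.1 and 33.2 to 92 and 96.2 CPM, with 189 ± 2.22 CPM under DHT. CCND1, cyclin D1, rose from 331 and 343 to 485 and 508 CPM, next to 528 ± 26.1 CPM with DHT.

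In the list of MYC and ribosome biogenesis genes, 14 of 29 fell and 1 (MXD1, a MYC antagonist) rose, with a median log2 change of -0.21 against -0.73 for DHT. The fall count was 9 without combined replicate 2. Against DHT, 20 of the 29 were higher with both compounds and none was lower. NPM1, a nucleolar chaperone, was at 384 and 373 CPM in control, 233 and 229 CPM with both compounds and 153 ± 7.66 CPM with DHT. NCL, nucleolin, was at 392 and 372, 232 and 229 and 160.3 ± 12.1 CPM in that order. DKC1, of the RNA pseudouridylation complex, was at 104 and 94.7, 76.4 and 77.3 and 45.2 ± 0.821 CPM. MXI1, another MYC antagonist, fell further than any other member, from 36.9 and 36.7 to 7.62 and 8.63 CPM.

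WNT and hedgehog genes fell in 14 of 24 cases, and FZD4, a frizzled receptor, rose; the median log2 change was -0.52 against -1.06 for DHT. SHH is given above. SCUBE2, which releases the hedgehog ligand from cells, fell from 59.4 and 56.2 to 7.3 and 8.1 CPM, next to 9.55 ± 1.43 CPM under DHT. GLI3, a transcription factor of the pathway, fell from 56.6 and 59.8 to 24 and 28.5 CPM. WNT2, a WNT ligand, was at 59.4 and 64.7 CPM in control, 25.2 and 28.7 CPM with both compounds and 1.78 ± 1.08 CPM with DHT, so its combined level stayed well above the DHT level (log2 difference 3.85 ± 0.23).

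Growth factor receptors and kinase feedback genes split into 6 that rose and 9 that fell of 25, and the count that fell was 5 without combined replicate 1. Over all genes tested 15.3% rose and 13.2% fell. IRS2, an insulin receptor adaptor, fell from 298 and 322 to 109 and 121 CPM. IGFBP3, which binds insulin-like growth factors, fell from 375 and 361 to 133 and 120.2 CPM. IGF1R, their receptor, rose from 896 and 972 to 1243 and 1309 CPM. SPRY4, a feedback inhibitor of MAP kinase signalling, rose from 28 and 32.6 to 84 and 90.1 CPM although DHT alone gave 33.6 ± 0.556 CPM.

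Prostate secretory and polyamine genes gave 9 that rose and 2 that fell (ACPP and FOLH1) of 15. For this list and the next, the background was 15.3% higher and 13.2% lower. AZGP1, a secreted lipid-mobilising protein, rose from 0.847 and 1.44 to 10.5 and 9.51 CPM. SAT1, which acetylates polyamines for export, rose from 105 and 105 to 246 and 253 CPM, and SMS, spermine synthase, from 195 and 185 to 398 and 386 CPM, next to 425 ± 0.00423 CPM with DHT. Genes linked to ERG gave 6 higher and 3 lower (ETS2, PLA1A and TDRD1) of 13, with a median log2 change of 0.00021 that was -0.10 with gene totals as the scale. CRISP3, a secreted protein, rose from 77.4 and 81.6 to 232 and 228 CPM, while TDRD1, a germline protein found in ERG-positive tumours, fell from 323 and 328 to 212 and 210.4 CPM. ERG itself rose, as given above.

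Epithelial genes rose in 10 of 19 cases and DSP, desmoplakin, fell. KRT18 and KRT8, the luminal keratins, rose from 137 and 135 to 252 and 247 CPM and from 500.4 and 469 to 809.7 and 827 CPM. ESRP1, an epithelial splicing factor, rose from 149.8 and 139.7 to 253 and 254 CPM. Of 8 basal genes 3 rose (KRT14, KRT15 and ITGA6) and 4 fell (ITGB4, COL17A1, DST and CAV1), at low levels apart from ITGA6 and DST, and each of these calls but CAV1's was lost when at least 1 library was left out, while CAV1 had no adjusted p in DESeq2. Of 15 neuroendocrine genes 2 rose (SYP and INSM1) and 4 fell (CHGB, ENO2, NCAM1 and SCGN), against a background of 15.3% higher and 13.2% lower. The call of SYP was lost without the second control or the first combined library, and that of CHGB without either control or the first combined library and in DESeq2. SCGN, a calcium-binding protein, fell from 37.3 and 38.6 to 12 and 10.9 CPM, while INSM1, a neuroendocrine transcription factor, rose from 14 and 20.4 to 35.3 and 38.9 CPM and was at 16.7 ± 1.73 CPM with DHT. Of 7 mesenchymal genes 1 fell and none rose, against 13.2% lower and 15.3% higher over all genes tested. This was CDH2, N-cadherin, at 3.08 and 3.23 against 0.803 and 0.176 CPM.

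In the hypoxia and glycolysis list 8 of 25 rose and 5 fell (ADM, HK2, PFKL, PKM and LDHA), and 9 fell with gene totals as the scale. VEGFA, the vascular growth factor, rose from 73.1 and 72.6 to 199 and 194 CPM, and HK1, a hexokinase, from 134 and 132 to 218 and 217 CPM. The xenobiotic list gave 5 that rose (CYP1B1, ABCC1, ABCC4, TIPARP and ALDH1A1) and 4 that fell (CYP1A1, CYP1A2, ABCC3 and GSTA1) of 18. ABCC4, an efflux pump for drugs and signalling molecules, rose from 57.7 and 62.1 to 152 and 162 CPM. CYP1B1, an oestrogen-oxidising enzyme, rose from 15.3 and 12.7 to 45.7 and 46.3 CPM, and its relative CYP1A1 fell from 26.2 and 22.3 to 13 and 13.1 CPM.

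Apoptosis regulators gave 6 higher and 4 lower (BCL2L11, BMF, BID and BIRC3) of 18. For the lists of this paragraph the background is 15.3% higher and 13.2% lower. XIAP, a caspase inhibitor, rose from 71 and 73.4 to 117 and 118 CPM, and BID, a death agonist, fell from 20.8 and 21.5 to 10.7 and 11 CPM. Of 16 heat shock genes 5 rose (HSPA1A, HSPA1B, DNAJB1, DNAJA1 and HSP90AA1) and 3 fell (HSPA4, HSP90AB1 and HSPD1); HSPA1A and HSPA1B are near-identical copies and share reads. Without the first control library none of the 16 was called lower, without the second combined library 1 was, and the count called higher came to 3 without the second control library or with gene totals as the scale. Steroid receptors, chaperones and cofactors gave 9 higher and 4 lower of 23, with PGR, the progesterone receptor, falling from 3.46 and 1.53 to 0.401 and 0.617 CPM. Of 23 interferon genes 3 rose (ISG15, IRF7 and B2M) and OAS3, an antiviral sensor, fell; the call of ISG15 was lost in 8 of 11 alternatives, and these counts lie under the background of 15.3% higher and 13.2% lower. The medians of the ERG, hypoxia, interferon, xenobiotic, apoptosis and receptor lists were positive by less than 0.10 and negative with gene totals as the scale.

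Mitochondrially encoded genes fell in 12 of 13 cases, with a median log2 change of -0.26, and with DHT 11 fell. MT-ND4L, with a log2 change of -0.29, did not pass the test but did in DESeq2. In Ver 1 of the 13 fell, with a median of -0.013, and the difference between the sublines passed for 8. Subline and lane cannot be told apart there. MT-ND2, a subunit of complex I, was at 1254 and 1136 CPM in control and 969 and 903 CPM with both compounds. Among the other cell markers tested, VWF rose and LUM and PDGFRB fell of 9 stromal and endothelial genes, and CSF1R rose of 3 immune genes. The background was 15.3% higher and 13.2% lower. The call of PDGFRB was lost when any 1 of the 4 libraries was left out, that of VWF without the second control or the first combined library, and that of CSF1R without the second control. LUM, a matrix proteoglycan, was at 14 and 13.5 CPM in control and 4.66 and 3.44 CPM with both compounds, and the others stayed under 5 CPM in the 4 libraries. The plot of list medians shows all lists with at least 5 genes tested.

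**Figure D3:**
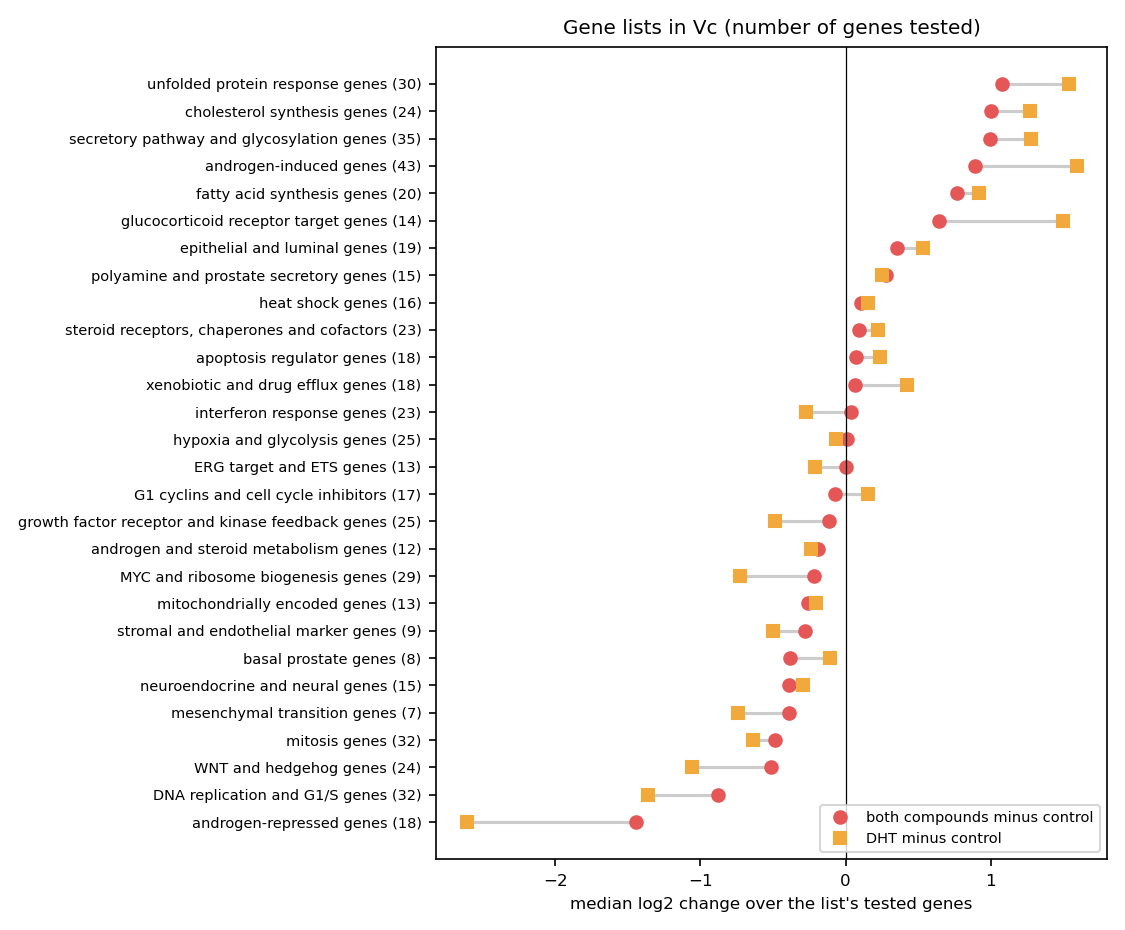
Median log2 change over the tested genes of each list in Vc, for both compounds minus control (circles) and DHT minus control (squares), which share the control libraries. Unfolded protein response genes are highest with both compounds (1.08) and androgen-repressed genes are lowest (-1.44).

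Large single rises at a mean of 5 CPM or more were in genes with low levels in control. CCDC141, a centrosomal protein, rose from 0.539 and 0.255 to 10.6 and 12.6 CPM. FAM189A2 rose from 4.47 and 3.57 to 27.3 and 28.2 CPM, the noncoding RNA MIR22HG from 6.78 and 9.77 to 51 and 45.5 CPM, and STARD4, a sterol carrier, from 2.93 and 1.1 to 11.2 and 14.4 CPM. BHLHA15, a transcription factor of secretory cells, rose from 2.85 and 3.65 to 15.9 and 17.6 CPM, and ADM2, a peptide hormone, from 23.9 and 19.2 to 104 and 104 CPM. Means were higher with DHT for each of these 6, where BHLHA15 reached 38.2 ± 5.48 CPM and ADM2 190.1 ± 5.82 CPM, and the difference passed the test for all but STARD4. ENSG00000273768, a small nuclear RNA gene with near-identical copies, was also called, but its levels were 1.46 and 1.36 CPM in control and 2.41 and 77.3 CPM with both compounds, so 1 library carried it; without that library its log2 change was 0.77 (edgeR adjusted p = 0.31).

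Among the largest falls, TRPM3, a cation channel, went from 13.9 and 13.1 to 0.401 and 0.352 CPM, a log2 change of -5.12 ± 0.53. KCNK13, a potassium channel, fell from 15.2 and 13.1 to 1.2 and 1.67 CPM, and GALR1, a galanin receptor, from 10.7 and 10.9 to 1.36 and 1.76 CPM. MGP, an inhibitor of calcification, fell from 26.6 and 23.5 to 3.61 and 4.32 CPM, and MCAM, an adhesion molecule, from 19.9 and 20.1 to 3.93 and 3.88 CPM. BMX and MATK, both tyrosine kinases, fell from 18.7 and 20.9 to 3.21 and 4.05 CPM and from 21.3 and 23.6 to 4.01 and 4.58 CPM. VAV3, a guanine nucleotide exchange factor, fell from 25.3 and 21.5 to 5.14 and 3.88 CPM. DHT alone gave levels of 0.244 ± 0.229 CPM for TRPM3 and 3.6 ± 0.22 CPM for MGP, and neither differed from the combination beyond the test's threshold, whereas MCAM was at 1.1 ± 0.166 CPM with DHT and did differ.

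A set of genes lay outside the range between control and DHT. With both compounds 149 genes were above control and above DHT, and 101 were below both, each called in both comparisons, which share the combined libraries. At a mean of 5 CPM or more these were 137 and 78 genes. SPRY4 (values above) and DNAH8, an axonemal dynein, were among the highest; DNAH8 was at 5.77 and 6.63 CPM in control, 24.5 and 21.2 with both compounds, 9.28 ± 1.05 with DHT and 5.7 ± 1.2 with enzalutamide. KCNN2, a calcium-activated potassium channel, was at 19.5 and 22.9, 42.3 and 41.5, 19.6 ± 0.658 and 15 ± 3.03 CPM in that order. RELN, the matrix protein reelin, was at 13.6 and 13.7, 26.9 and 28.1, 14.8 ± 1.9 and 15.1 ± 0.486 CPM. ENDOD1, a nuclease, stood at 26.1 and 24.8 CPM in control, 120.2 and 117 with both compounds and 70.6 ± 4.37 with DHT. These genes were chosen for differing from control and from DHT, so that difference is no result. Their levels with enzalutamide alone did not enter the choice. Whether the effects of the compounds add up was not tested. FAR2P4 and POTEE ranked with these genes but have near-identical copies, and are uncertain.

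Below both stood HPGD (values above) and HOPX, a homeodomain cofactor, at 9.39 and 8.33 CPM in control, 2.57 and 2.47 with both compounds and 5.85 ± 0.662 with DHT. EGR1, an immediate early transcription factor, was at 14.2 and 15.2, 6.42 and 5.46 and 11.4 ± 0.99 CPM, and ITGB8, an integrin, at 35.6 and 37.6, 14.8 and 13.2 and 25.8 ± 0.727 CPM. MOCOS, which activates molybdenum enzymes, moved in opposite directions, from 16.9 and 19.1 CPM in control to 11.6 and 9.25 CPM with both compounds and 33.2 ± 2.16 CPM with DHT. ACSL5, a fatty acyl-CoA synthetase chosen after its values were seen, was at 104 and 104, 49.5 and 48.6 and 81.2 ± 0.849 CPM.

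**Figure D4:**
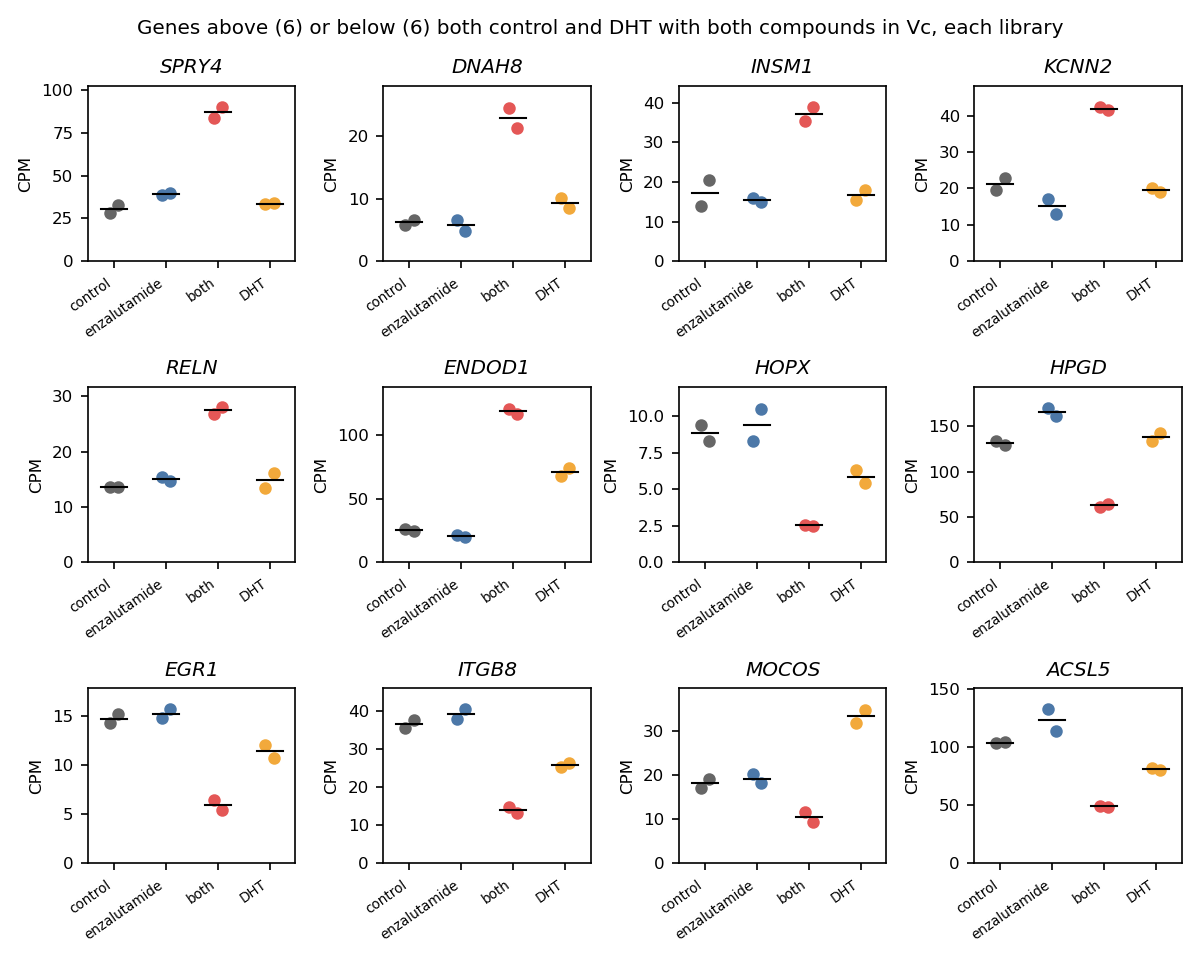
CPM (linear axis from 0) of 6 genes above and 6 genes below both control and DHT when both compounds were present; points are libraries (n = 2) and lines are group means. The genes were chosen for lying outside control and DHT. In SPRY4, DNAH8, INSM1, KCNN2, RELN and ENDOD1 the combined libraries lie above all others, and in HOPX, HPGD, EGR1, ITGB8, MOCOS and ACSL5 below all others.

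Against enzalutamide alone, adding DHT left 3709 genes higher (16.4%) and 3257 lower (14.4%), and 2717 higher and 4471 lower with gene totals as the scale. This comparison shares the combined libraries with the main one, so its counts are set beside the earlier ones and are no independent support. All 35 secretory genes, 29 of 30 unfolded protein response genes, 22 of 24 sterol genes and 36 of 43 androgen-induced genes were higher, and 16 of 18 androgen-repressed and 23 of 32 replication genes were lower. FKBP5 differed by 2.23 ± 0.08 on the log2 scale, KLK2 by 1.14 ± 0.041, SLC45A3 by 2.30 ± 0.048 and SHH by -3.47 ± 0.089. SHH stood at 233 ± 3.22 CPM with enzalutamide alone, above its control level.

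DHT-responsive genes were also chosen in Ver libraries alone, so that no Vc library entered the choice. In a fit of the 2 Ver control and 2 Ver DHT libraries, 1427 genes rose and 2208 fell by at least 2-fold. Of the 1427, Vc cells with both compounds showed 919 higher (64.4%) and 5 lower, with a median log2 change of 0.82, and Vc cells with DHT 1185 higher (83.0%), with a median of 1.35. Of the 2208, 1186 were lower (53.7%) and 16 higher with both compounds, with a median of -0.71, and 1714 lower with DHT (77.6%), with a median of -1.44. These shares compare with the background of 15.3% higher and 13.2% lower. Between the combination and DHT in Vc, 854 of the first set were lower and 2 higher, and 998 of the second were higher and 5 lower.

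With the same treatment fewer genes passed the test in Ver, 2788 higher (12.4%) and 2329 lower (10.3%), or 1977 higher and 3427 lower with gene totals as the scale. The Ver control and combined libraries were also shallower, with gene totals from 9554571 to 10560260, against 11320665 to 12929267 in Vc. The part of depth in the lower count was not tested. Of the genes that rose in Vc, 2213 also rose in Ver (64.1% of the Vc list and 79.4% of the Ver list), and 1630 fell in both (54.9% and 70.0%); 17 were called in opposite directions. No library is shared between these comparisons. All Vc libraries carry a different sequencing lane in their descriptions from the Ver libraries, so subline and lane cannot be told apart in this difference. The difference in effect passed the test for 402 genes (1.78%), 163 higher (0.723%) and 239 lower (1.06%) in Ver. The count of 402 fell to 227 and 223 without the first or second combined Vc library, to 245 without the second Vc control, and to 202 and 221 without the first combined or first control library of Ver.

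FKBP5 was among these genes, with a log2 change of 1.91 ± 0.077 in Vc and 0.88 ± 0.081 in Ver, a difference of -1.03 ± 0.11 (edgeR adjusted p = 5.4e-07). SLC45A3 changed by 1.85 ± 0.048 in Vc and 1.26 ± 0.048 in Ver, and SHH by -2.92 ± 0.089 and -1.82 ± 0.14. UGT2B15 changed by -1.65 ± 0.12 in Vc and -0.76 ± 0.097 in Ver. MYC changed by -0.88 ± 0.054 and -0.49 ± 0.054. In all 5 the change had the same sign and was smaller in Ver. For KLK2, KLK3, TMPRSS2 and ERG the difference did not pass, at -0.11 ± 0.058, -0.12 ± 0.13, -0.21 ± 0.079 and -0.13 ± 0.073.

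Further genes whose change differed between the sublines follow. GPX3, a secreted glutathione peroxidase, rose in Vc from 30.0 and 30.2 to 52 and 54.1 CPM and in Ver went from 262 ± 9.86 to 188 ± 6.1 CPM, a difference of -1.29 ± 0.10 (edgeR adjusted p = 3.4e-21). CLSTN2, a synaptic adhesion protein, fell in Vc from 75.2 and 76.5 to 28.7 and 31.1 CPM and was at 112 ± 3.06 and 106 ± 13.5 CPM in Ver. CACNG4, a calcium channel subunit, rose in Vc from 8.01 and 6.97 to 31.5 and 33.2 CPM and in Ver from 11.3 ± 0.776 to 19.4 ± 0.296 CPM. SNORA49, a small nucleolar RNA for which polyadenylated libraries are a poor measure, fell in Vc and did not pass the test in Ver, with log2 changes of -1.22 ± 0.17 and 0.39 ± 0.16. RELN and KCNN2, above both control and DHT in Vc, gave log2 changes of 0.17 ± 0.076 and 0.11 ± 0.14 in Ver, which did not pass the test.

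**Figure D5:**
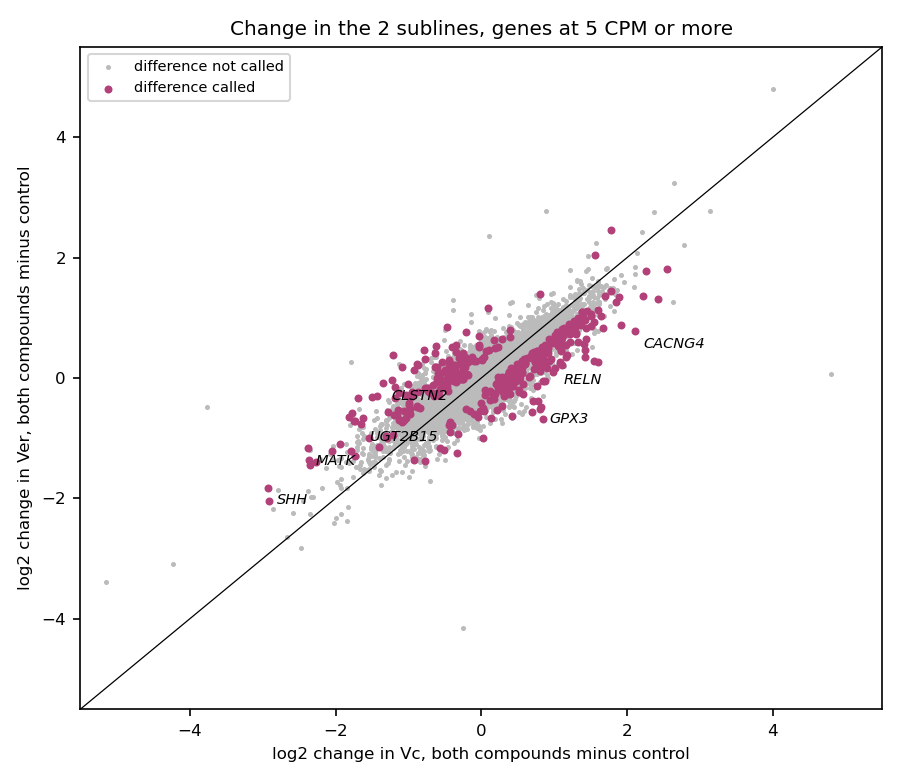
Log2 change of both compounds over control in Vc (horizontal) and Ver (vertical) for 12383 genes at a mean of 5 CPM or more over the 8 libraries; the line marks equal change. The 379 genes whose difference passed the test are drawn as purple points, above the line where the value in Ver was higher and below it where it was lower.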

How the data were processed

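Per the labels, polyadenylated RNA of VCaP cells was made into libraries with the VAHTS mRNA-seq V3 kit, 2 per group. Per the submitters' processing notes, reads passed FastQC 0.11.7, Trimmomatic 0.36-5, HISAT2, SAMtools and HTSeq 0.11.1 on GRCh38 (hg38). The authors deposited whole-number read counts per gene for each library; the file names mark union mode without strand, so overlapping and antisense genes cannot be told apart. Lines that name no gene were left out of totals. A deposited table of normalized values was not used. Symbols came from GENCODE 29. All 16 libraries entered one edgeR 4.0.16 fit (filterByExpr, TMM, robust quasi-likelihood F test; 22553 genes, 8 residual degrees of freedom, common biological variation 6.01%). SEs are Wald errors from the quasi-likelihood variance, or from counting where that is larger. The fit was tested on simulated data.

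Alternatives were DESeq2 1.42.0, other scalings and filters, the compared groups alone, a replicate block and each library left out. Replicate libraries differed by more than counting noise (chi-square 2.45 to 3.65 per degree of freedom) and were kept as separate samples; whether they came from separate cultures was not tested by this. The comparison and the 29 gene lists were chosen with earlier results of these data known. Named genes were the anchors of the androgen response, 15 largest rises and falls called without overlap at 5 CPM or more, 4 members with the smallest p per list, 8 largest Ver differences and 10 genes outside the control to DHT range each way, and members of small counts. Other genes named for their function were chosen after their values were seen. Some genes these rules give are not reported here.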

Additional observations from a re-analysis of the deposited data

Results flagged for a closer look

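For 42 genes named in the report the change with both compounds differed between Ver and Vc by the test of that difference itself, and 24 of these calls held in all 15 alternatives. Values are log2 differences, Ver minus Vc. Subline and sequencing lane cannot be told apart.

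Among androgen-responsive genes that rose in Vc, the differences were -1.03 for FKBP5, -0.847 for NCAPD3, -0.588 for SLC45A3, -0.624 for STEAP2, -0.531 for STEAP1, -0.521 for PMEPA1, -0.472 for UAP1 and -0.421 for ABCC4. LIFR, with a difference of -0.497, rose in Vc and fell in Ver, with log2 changes of 0.29 ± 0.062 and -0.21 ± 0.064. Metabolic, secretory and signalling genes that rose gave -0.568 for RDH11, -0.372 for GFPT1, -0.447 for SAT1, -0.466 for VEGFA, -0.438 for ALDH1A1 and -0.301 for IGF1R. Other genes that rose gave -2.7 for CCDC141, -0.742 for MIR22HG, -0.494 for ADM2, -0.854 for ENDOD1, -1.33 for CACNG4 and -1.29 for GPX3. Genes above both control and DHT in Vc gave -0.877 for KCNN2, -0.838 for RELN and, with near-identical copies, -1.33 for FAR2P4 and -1.25 for POTEE.

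Over all genes, the difference was called for 145 that fell in Vc, and 135 of these changed less or oppositely in Ver. For genes that rose in Vc these counts were 215 and 206. Vc libraries entered both the choice of genes and the difference. The named genes that fell in Vc had positive differences. They were 1.1 for SHH, 0.89 for UGT2B15, 0.389 for MYC, 0.293 for ACPP, 1.2 for PTGER4, 0.872 for SCUBE2, 0.538 for GLI3, 1.02 for SCGN, 1.22 for MATK, 1.01 for VAV3, 0.505 for NCL, 0.287 for MT-ND2, 1.26 for CLSTN2 and 1.6 for SNORA49. HPGD, MOCOS and ACSL5, below both control and DHT in Vc, gave 0.375, 1.25 and 0.349. The 18 calls lost in at least 1 alternative include CCDC141, lost in 7, and ACSL5, lost in 8.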

How the results depend on the processing

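The number of genes changed by both compounds in Vc was 6418 and stayed between 5038 and 5200 with 1 library left out, where the lone library is assumed to vary like the other groups. It was 5395 in DESeq2, 5819 with no filter on low counts, 6458 with the stricter filter, 6409 with DESeq2-type size factors, 6686 with gene totals and 6453 with the compared groups alone. With the replicate number as a block it was 6410; same-numbered control and combined libraries of Vc did not deviate together (r = 0.043 over 12354 genes) and were not treated as pairs, and the numbers of the other groups were not checked. The 402 genes whose change differed between the sublines came to 202 to 358 with 1 library left out: 350 and 358 without the second combined or second control library of Ver, 268 without the first Vc control, and the lower values given in the report. DESeq2 called 291 genes and the replicate block 409; the cause was not tested. Of 195 single-gene changes named, none reversed, 123 gene and setting pairs lost the call and 11 gained it. Without the first control library, calls were lost for UGT2B17, HSD17B11, CCND3, CHGB, ISG15, PDGFRB, KRT14, KRT15, PGR, GLUL, CDKN2D, ETS2, CYP1A2, HSPA4, HSP90AB1, HSPD1, LDHA, ABCC1, GINS3, ALG12, TMEM120A, CDKN2C and ENSG00000273768. Without the second control library, calls were lost for HSD17B11, SYP, CHGB, ISG15, VWF, PDGFRB, CSF1R, KRT14, KRT15, ITGA6, ITGB4, MXD1, BCL2L11, HSPA1A, HSP90AA1, PFKL, ABCC1, GINS3, CDKN2C, CDC25A and ENSG00000273768. Without the first combined library, calls were lost for UGT2B17, HSD17B11, SYP, CHGB, ISG15, VWF, PDGFRB, KRT14, KRT15, COL17A1, GLUL, MXD1, BMF, HSP90AA1, HSPA4, PFKL, LDHA, GINS3, CDKN2C, CDC25A and ALG12. Without the second combined library, calls were lost for HSD17B11, CCND3, PLA1A, PDGFRB, KRT15, ITGB4, DST, CDKN2D, ETS2, CYP1A2, BCL2L11, HSPA1A, HSPA4, HSP90AB1, TM7SF2, ABCC1, GINS3, ALG12, TMEM120A, CDKN2C, RBL1, SKP2 and ENSG00000273768. Of 264 alternatives of 24 list counts of 5 or more, 8 moved by over 1.5 times, and the report gives these beside the lists. Shares of the set chosen in Ver ran from 57.4% to 71.3% of risen and 43.8% to 60.3% of fallen genes. Depth limits low genes: of 3914 genes under 1 CPM over the 4 libraries 199 were called, the smallest change being 1.52 on the log2 scale.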
